A study of Mus musculus with 18 samples.

Results

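The 31 genes described here are interferon-stimulated genes, a set chosen by symbol. All 31 were found among the 22019 genes of the normalized expression table, each as a single row. The 30 that rose above the lowest value of the table in at least 3 libraries were tested with the other genes, 16021 in all. Ifih1 was listed at that lowest value, 1, in all 18 libraries and could not be tested.

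Polyadenylated RNA was sequenced from NIH 3T3 cells, a mouse fibroblast line, grown on fibronectin-coated polyacrylamide gels. Every group carried a doxycycline-inducible retroviral construct and received 1 μg/ml doxycycline for 48 hr. SUN1L cells expressed the lumenal part of SUN1, which competes for nesprins and uncouples the nucleus from the cytoskeleton (LINC complex disruption), while KDEL cells expressed a GFP with the same retention signal and served as the control. Each construct was represented by a stable cell population, so the construct and the population that carries it cannot be told apart. The 6 groups of 3 libraries were KDEL on 1 kPa (libraries 4, 16 and 28), SUN1L on 1 kPa (3, 15 and 27), KDEL on 308 kPa (8, 20 and 32), SUN1L on 308 kPa (7, 19 and 31), KDEL on 308 kPa with 25 μM Y27, an inhibitor of actomyosin contractility (12, 24 and 36), and KDEL on 308 kPa with 10 μM blebbistatin, an inhibitor of myosin II (10, 22 and 34). Libraries are listed in this order within each group throughout. Library 34 has labels that go against its group. Its source name and its characteristics give an empty vector in place of the GFP construct of the other KDEL libraries, the first names Y27 and the second blebbistatin, and the second header line of its column holds a library number that no sample has. It was kept in the blebbistatin group, and the counts, medians and named differences for blebbistatin are also given without it.

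Some facts of the libraries touch every result. Depth was estimated from the commonest low value at between 12670000 and 19460000 read pairs, so that 1 read pair is worth about 2.03 units of signal in the median library. Sun1 signal ran from 38452 to 82617 in the SUN1L libraries and from 2785 to 3799 in the other 12, which matches the construct on the labels. Libraries 3, 7 and 8 stood apart: the mean log2 signal of 25 genes of dividing cells was 8.58 to 9.18 there and 11.44 to 12.18 in the other 15. These 3 libraries fall in 3 different groups, and the inhibitor groups hold none of them. Of 10 fibroblast markers, 9 were present and Lum stayed under 10 in every library. Of 7 lymphocyte markers 6 stayed under 10 in every library, of 6 epithelial markers 5, of 10 macrophage markers 2 (Emr1 and Tyrobp), and of 6 endothelial markers none. The summed signal over all libraries ran from 284 to 934 for the macrophage and from 341 to 3981 for the endothelial markers. Fewer cells of a kind and less RNA per cell cannot be told apart in such samples.

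Interferon-stimulated genes are the output of the antiviral interferon pathway. Cytosolic sensors of viral RNA or DNA lead to transcription of interferons, which bind their receptors on the same or neighbouring cells and activate the kinases Jak1 and Tyk2. Stat2 and Irf9 then act in a complex that binds the interferon-stimulated response element in promoters, and many of the genes it drives encode proteins that block viral entry, translation or replication. Fibroblasts make and answer type I interferon, and hold a low level of many of these genes without any virus.

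Some of these genes held the core of the response element near their starts. The 300-base windows of RefSeq (GRCm38.p6, 250 bases before and 50 after each start) were searched on both strands for the core of the response element, GAAA, 2 free bases and GAAA again. A window was found for 26 of the 31 genes, and 14 of these (53.8%) held the core. Over all genes with a window the share was 3.99%, 1079 of 27025. Stretches of 100 bases are shown for the 4 most abundant genes that are described library by library and hold the core, 5′ to 3′ along the gene, with the core in capitals (on the reverse strand it reads TTTC, 2 free bases and TTTC).
Ifitm3, chr7:141010715-141010814, minus strand: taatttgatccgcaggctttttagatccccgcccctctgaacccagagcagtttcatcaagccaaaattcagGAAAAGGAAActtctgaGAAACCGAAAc
Eif2ak2, chr17:78882543-78882642, minus strand: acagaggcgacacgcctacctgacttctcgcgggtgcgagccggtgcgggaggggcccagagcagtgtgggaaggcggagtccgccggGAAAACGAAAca
Stat2, chr10:128270256-128270355, plus strand: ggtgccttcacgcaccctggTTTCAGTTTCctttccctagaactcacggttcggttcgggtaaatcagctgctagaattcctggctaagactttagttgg
Ddx58, chr4:40239796-40239895, minus strand: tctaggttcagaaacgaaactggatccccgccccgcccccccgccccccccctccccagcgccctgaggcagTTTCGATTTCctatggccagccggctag

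In Ifitm3, Eif2ak2 and Ddx58 the core lay just after the annotated start, from base 3 and base 20 of the transcript in Ifitm3, base 19 in Eif2ak2 and base 3 in Ddx58. In Stat2 it began 222 bases before the start. Isg15 held 3 overlapping cores, the first 78 bases before its start, and Bst2, Gbp3 and Oas1a held 2 overlapping cores each. Ifit1 and Ifit3 each held 2 separate ones. Genes with the core were not the more abundant ones. The 14 genes with it had a median mean signal of 45.3 (range 1.00 to 3257), and the 12 without it a median of 398 (range 2.53 to 2480).

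The levels of the 31 genes spread over more than 3 orders of magnitude. Mean signal over the 18 libraries was 1000 or more for 5 genes, 100 to under 1000 for 9, 10 to under 100 for 12 and under 10 for 5. Per kb of exon the median of the 31 was 48.8, against 164 over the 15617 tested genes with a known exon length. Ifitm3, which blocks viral entry at the membrane, stood highest at 4803 per kb, above 97.96% of tested genes. Ifit2, which binds RNA and restrains translation, followed at 535 per kb. Its relatives Ifit3 and Ifit1 reached only 28.4 and 3.19 per kb. The textbook marker Isg15, a ubiquitin-like protein, was at 50.2 per kb, and Rsad2 (viperin) and Ifi44 were at or near the lowest value of the table.

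**Figure D1:**
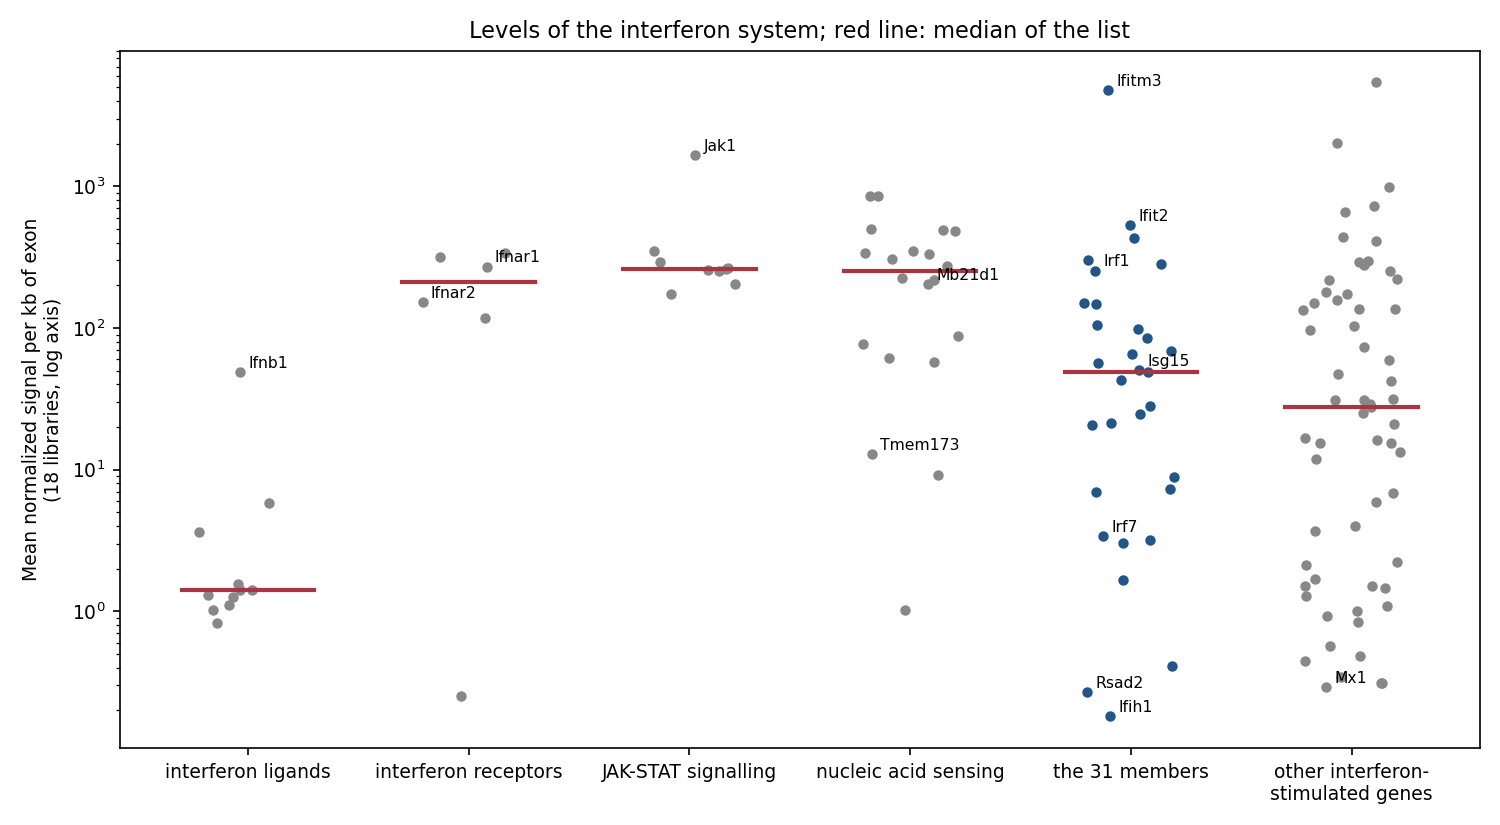
Mean normalized signal per kb of exon over 18 libraries (log axis), 1 point per gene, for lists of the interferon system, with the median of each list as a red line. A gene listed at the lowest value of the table, such as Ifih1, sits at a height set by its length alone, and the 31 genes (blue) range from Ifih1 to Ifitm3 at 4803 per kb.

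The upstream pathway was present. The receptor chains Ifnar1 and Ifnar2 had a mean signal of 1598 and 592, and the kinase Jak1 11967. Of the ligands Ifnb1 was the highest, at 18.97 to 89.5 with a median of 30.0. Ifnz reached 32.7, and every other ligand row stayed at or under 9.40. Ifng was at the lowest value in every library. Mx1, a classical antiviral gene, was at or near the lowest value in every library, with a highest value of 2.20.

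**Figure D2:**
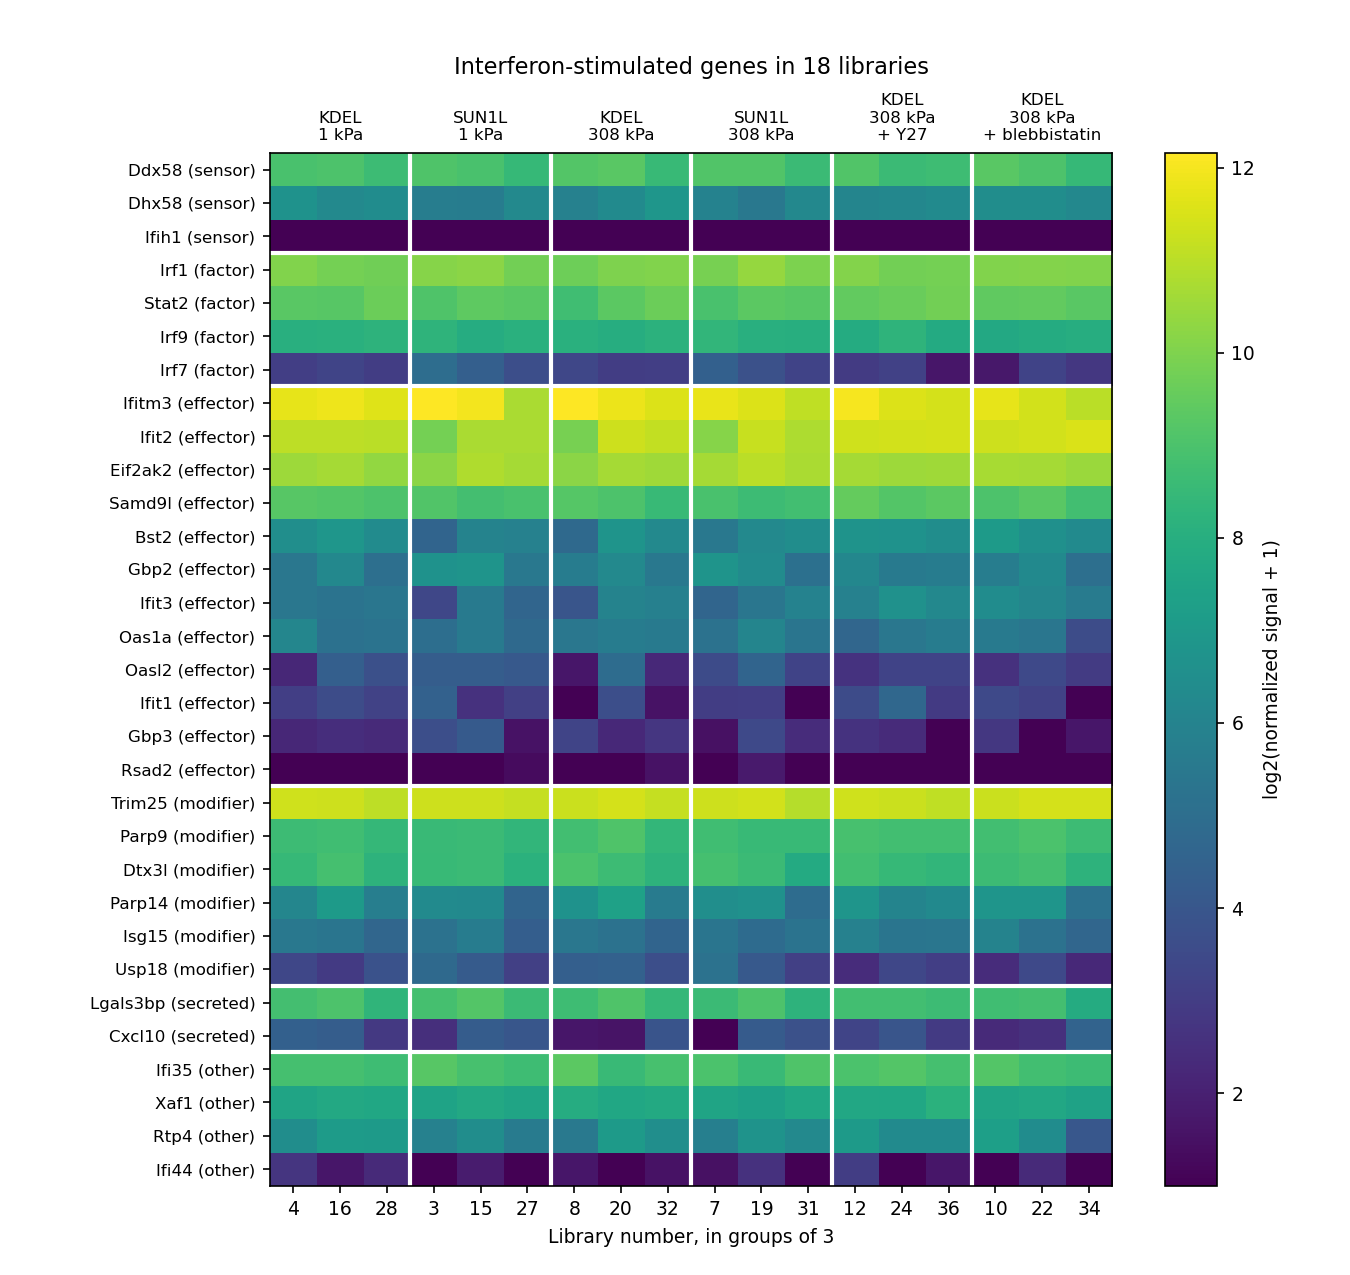
Heat map of log2(normalized signal + 1) for the 31 genes (rows, by role and then mean signal) in 18 libraries (columns, 3 per group). Each row keeps nearly the same colour across groups for the abundant genes, while rows with a mean under 10, such as Ifit1 and Gbp3, vary between libraries of the same group.

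Across the 9 comparisons none of the 30 tested genes was called, with a call set at an adjusted p under 0.05 and a change of 2-fold (limma on log2(signal + 1), Benjamini-Hochberg adjustment; for the interaction, a Bonferroni-corrected p under 0.05). None was called under any alternative setting either. An unadjusted p under 0.05 was reached 6 times in the 9 comparisons, by Irf7, Ifi44, Dhx58 and Usp18.

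The comparison of SUN1L with KDEL cells asks whether LINC disruption changed these genes. On 1 kPa 14 of 16021 genes were called (0.0874%) and none of the 30. An unadjusted p under 0.05 was found for 2 of the 30, Irf7 and Ifi44, against 4.54% of all tested genes. Of the 30, 12 were higher and 18 lower in SUN1L cells, with a median log2 difference of -0.07. The 95% interval lay within 2-fold either way for 15 of the 30, and it reached past 2-fold for the others. On 308 kPa 10 genes were called (0.0624%) and none of the 30, and none had an unadjusted p under 0.05, against 2.53%. The median log2 difference there was -0.04. Among markers of other cell types, the endothelial Tie1 was lower in SUN1L cells on 1 kPa (log2 difference -1.82, unadjusted p 0.00901 and adjusted p 0.930 from limma). It was 1 of 6 endothelial markers under an unadjusted p of 0.05 (16.7%), and 3 of the 6 were higher and 3 lower. The macrophage gene Csf1r was higher on 308 kPa (1.75, unadjusted p 0.0321 and adjusted p 1.00 from limma). It was 1 of 8 tested macrophage markers (12.5%), of which 6 were higher and 2 lower. The part of these markers in the results was not tested. Over both rigidities together 29 genes were called (0.181%) and none of the 30, and 2 of the 30 had an unadjusted p under 0.05, against 6.8%.

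Irf7 is the factor that amplifies the type I interferon response. Its signal was 7.51, 8.86 and 7.23 in KDEL cells on 1 kPa and 30.6, 19.6 and 11.7 in SUN1L cells on 1 kPa. On 308 kPa it was 9.30, 7.13 and 7.36 in KDEL cells and 20.6, 12.4 and 8.58 in SUN1L cells. All 3 SUN1L libraries lay above the KDEL libraries on 1 kPa, and the groups overlapped on 308 kPa. The mean was 7.87 ± 0.870 against 20.6 ± 9.499 on 1 kPa (SD, n = 3 per group). The log2 difference was 1.19 (SE 0.39) on 1 kPa, with an unadjusted p of 0.0106 and an adjusted p of 0.930 from limma. Over both rigidities it was 0.93 (SE 0.27), with an unadjusted p of 0.00621 and an adjusted p of 0.485 from limma. Library 3 held the highest Irf7 value and library 7 the second of the SUN1L libraries, and both are among the libraries low in genes of dividing cells. Without libraries 3, 7 and 8 the difference over both rigidities was 0.67, with an unadjusted p of 0.0190 and an adjusted p of 0.515. These values correspond to few read pairs per library.

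Dhx58 (LGP2) is the sensor that regulates the other RNA helicases. Its signal was 101, 74.5 and 84.5 in KDEL and 52.5, 51.0 and 74.3 in SUN1L cells on 1 kPa. On 308 kPa it was 59.3, 79.2 and 116 in KDEL and 60.8, 42.6 and 72.8 in SUN1L cells. The groups did not overlap on 1 kPa, where the SUN1L libraries were lower, and overlapped on 308 kPa. Over both rigidities the log2 difference was -0.53 (SE 0.23), with an unadjusted p of 0.0418 and an adjusted p of 0.720 from limma. Leaving out each of the 12 libraries in turn kept the unadjusted p under 0.05 in 4 of 12 fits.

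Ifi44 stayed at 1.00 to 5.63 in the 12 libraries of this comparison, near the lowest value that the table holds. It read 5.63, 2.21 and 4.08 in KDEL and 1.00, 2.55 and 1.00 in SUN1L cells on 1 kPa. On 308 kPa it read 2.16, 1.00 and 1.96 in KDEL and 1.81, 4.97 and 1.00 in SUN1L cells. Its log2 difference on 1 kPa was -0.98 (SE 0.44), with an unadjusted p of 0.0486 and an adjusted p of 0.930 from limma. It rests on values worth few read pairs, and the unadjusted p stayed under 0.05 in 2 of 6 fits that each left out 1 library.

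Among the other members, groups on 1 kPa did not overlap for 5 of the 30: Irf7 was higher in SUN1L, and Bst2, Dhx58, Ifit2 and Rtp4 were lower. That happened for 14.5% of all tested genes. On 308 kPa it happened for Eif2ak2 (higher) and Xaf1 (lower), against 4.29%. Eif2ak2 (PKR), the kinase that stops translation on double-stranded RNA, read 1181, 1587 and 1534 in KDEL and 1591, 2064 and 1727 in SUN1L cells on 308 kPa, a log2 difference of 0.33. On 1 kPa it read 1466, 1597 and 1323 in KDEL and 1204, 1843 and 1605 in SUN1L cells, which overlap.

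Ifit2 was 2111, 2086 and 2051 in KDEL cells on 1 kPa and 920, 1721 and 1718 in SUN1L cells. On 308 kPa it was 937, 2498 and 2246 in KDEL and 1110, 2356 and 1790 in SUN1L cells. The 3 lowest of the 18 values were those of libraries 3, 7 and 8. The same was true of Bst2 (tetherin, which holds budding virions at the cell surface), Ifit3 and Stat2. That made 4 of the 30 (13.3%), against 12.9% of all tested genes. No member was highest in those 3 libraries, against 8.8% of all tested genes. Without libraries 3, 7 and 8 the log2 difference of Ifit2 over both rigidities moved from -0.32 to -0.24, with an unadjusted p of 0.0331 and an adjusted p of 0.590. The part of dividing-cell genes in these results was not tested.

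**Figure D3:**
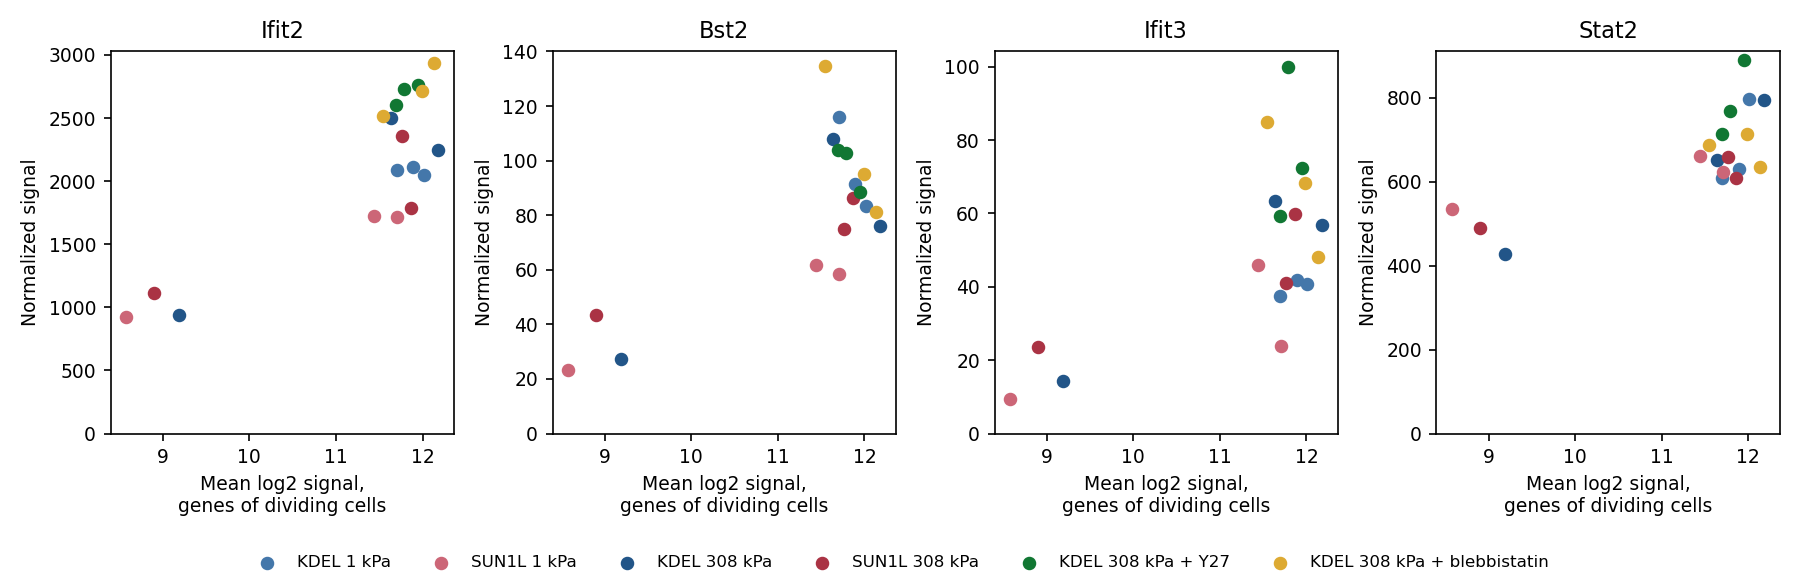
Normalized signal of Ifit2, Bst2, Ifit3 and Stat2 (vertical axes) against the mean log2 signal of 25 genes of dividing cells (horizontal axes), 1 point per library, coloured by group. Libraries 3, 7 and 8 lie alone at the left, between 8.58 and 9.18, and have the 3 lowest values of each gene.

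The comparison of 308 kPa with 1 kPa asks whether substrate rigidity changed the genes. In KDEL cells no gene was called (0%), and none of the 30 had an unadjusted p under 0.05, against 1.37%. The median log2 difference of the 30 was 0.01. Groups did not overlap for Ifi44 alone (lower on 308 kPa), against 4.78% of all genes. In SUN1L cells no gene was called, none of the 30 had an unadjusted p under 0.05, against 1.93%, and no member had groups that did not overlap, against 4.77%. The interaction of SUN1L and rigidity asks whether the SUN1L difference depended on rigidity. No gene passed the Bonferroni-corrected test, and 0 of the 30 had an unadjusted p under 0.05, against 0.905%. The interval lay within 2-fold for 18 members in KDEL cells, 16 in SUN1L cells and 11 for the interaction.

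Of the members with low signal, Cxcl10 and Ifit1 had log2 differences of -1.47 and -1.21 with rigidity in KDEL cells, and the factor Irf7 one of -0.53 in SUN1L cells. The other factors were followed library by library. Irf1 was 1043, 905 and 841 in KDEL cells on 1 kPa and 823, 1025 and 1045 on 308 kPa, and 1109, 1186 and 878 against 944, 1324 and 999 in SUN1L cells. Irf9, which binds DNA in a complex with Stat2, was 261, 270 and 297 on 1 kPa and 268, 244 and 288 on 308 kPa in KDEL cells, and 305, 238 and 272 against 320, 262 and 250 in SUN1L cells. Stat2 was 631, 608 and 797 on 1 kPa and 429, 653 and 795 on 308 kPa in KDEL cells, and 535, 662 and 623 against 490, 660 and 610 in SUN1L cells. For Irf1, Irf9 and Stat2 the groups overlapped in both comparisons.

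The sensor Ddx58 (RIG-I), which detects viral RNA ends, was 502, 518 and 405 in KDEL cells on 1 kPa and 582, 630 and 361 on 308 kPa. In SUN1L cells it was 544, 490 and 357 on 1 kPa and 560, 555 and 388 on 308 kPa. The lowest value of each group came from the library numbered 27 to 36. Library numbers fall in 3 series, 3 to 12, 15 to 24 and 27 to 36, with 1 library of each group in each. The library of the last series was the lowest of its group in at least 5 of 6 groups for Ddx58, Dtx3l, Gbp2, Ifitm3, Lgals3bp, Parp14 and Trim25. These were 7 of the 30 (23.3%), against 13.8% of all tested genes. None was the highest in at least 5 groups, against 16.7%.

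Ifitm3 read 3385, 3769 and 3099 in KDEL cells on 1 kPa, 4571, 3982 and 1717 in SUN1L cells on 1 kPa, 4564, 3623 and 3071 in KDEL cells on 308 kPa and 3483, 3031 and 2194 in SUN1L cells on 308 kPa. Trim25, a ubiquitin ligase that activates RIG-I, read 2589, 2564 and 2099, then 2542, 2545 and 2298, then 2457, 2777 and 2283, then 2542, 2701 and 1930 in the same 4 groups. The groups overlapped for both genes in each comparison of SUN1L or rigidity.

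The inhibitor groups ask whether actomyosin contractility bears on these genes in KDEL cells on 308 kPa. They share the untreated libraries 8, 20 and 32. Under Y27 no gene was called (0%), and 1 of the 30 had an unadjusted p under 0.05, against 6.05%. Under blebbistatin no gene was called, and 1 of the 30 had an unadjusted p under 0.05, against 4.21%. The median log2 difference of the 30 was 0.03 under Y27 and -0.02 under blebbistatin. Between Y27 and blebbistatin no gene was called and none of the 30 had an unadjusted p under 0.05, against 2.83%. The interval lay within 2-fold for 16, 15 and 17 members in these 3 comparisons. Without library 34 the count of members with an unadjusted p under 0.05 was again 1 for blebbistatin, against 3.04% of all tested genes, and 0 for Y27 against blebbistatin, against 2.32%. The median under blebbistatin was then 0.12, with 22 members higher and 8 lower in place of 15 and 15. Between Y27 and blebbistatin the median was 0.14 with library 34 and -0.01 without it. Of the 6 endothelial markers 4 were higher and 2 lower under Y27, with a median log2 difference of 0.32. Under blebbistatin 1 was higher and 5 were lower, with a median of -0.46. The summed signal of these markers was 1080.3 to 3981 under Y27 and 379 to 731 in the untreated libraries, so that every Y27 library lay above the untreated ones. Under blebbistatin the sum was 345 to 1546, which overlaps the untreated libraries. Of these 6 markers Tek alone had an unadjusted p under 0.05 for Y27, with a log2 difference of 2.85 (unadjusted p 0.0198 and adjusted p 0.741 from limma). The part of these markers in the inhibitor results was not tested.

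Usp18, which removes Isg15 from proteins and shuts off the interferon receptor, was the member in both. Its signal was 19.8, 20.9 and 12.01 in untreated cells, 4.39, 9.32 and 7.45 under Y27, and 4.41, 9.97 and 3.86 under blebbistatin. All 6 treated libraries were below the 3 untreated ones. The log2 difference was -1.22 (SE 0.40) under Y27, with an unadjusted p of 0.0171 and an adjusted p of 0.718 from limma. Under blebbistatin it was -1.45 (SE 0.40), with an unadjusted p of 0.00724 and an adjusted p of 0.890 from limma. Without library 34 the blebbistatin difference was -1.23, with an unadjusted p of 0.0286 and an adjusted p of 1.00. With library 34 counted as Y27 the Y27 difference was -1.39, with an unadjusted p of 0.00694 and an adjusted p of 0.739. Without library 8 the difference was -1.12 under Y27, with an unadjusted p of 0.0510, and -1.35 under blebbistatin. Leaving out each of the 6 libraries in turn kept the unadjusted p under 0.05 in 3 of 6 fits for Y27 and 6 of 6 for blebbistatin. In KDEL cells on 1 kPa, with no inhibitor, Usp18 was 9.47, 6.42 and 13.2. In SUN1L cells, also without inhibitor, it was 27.5, 17.2 and 7.72 on 1 kPa and 36.4, 16.4 and 7.62 on 308 kPa.

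Groups did not overlap for 2 members under Y27, Ifit2 (higher) and Usp18 (lower), against 8.57% of all tested genes. Under blebbistatin they did not overlap for 3, Ifit2 and Irf1 (higher) and Usp18 (lower), against 7.22%. With library 34 left out, which makes a separation easier, Eif2ak2 and Ifit3 (higher) and Irf9 (lower) joined them, 6 of 30 against 13.0% of all tested genes. Ifit2 read 2603, 2734 and 2759 under Y27 and 2520, 2716 and 2933 under blebbistatin, against 937, 2498 and 2246 untreated. The untreated library 8 was the low one. The log2 difference was 0.63 (SE 0.33) under Y27 and 0.64 (SE 0.33) under blebbistatin, and 0.19 and 0.20 without library 8. Without library 34 it was 0.59 under blebbistatin. Irf1 read 1064, 1091 and 1056 under blebbistatin, against 823, 1025 and 1045 untreated, a log2 difference of 0.16 (0.17 without library 34), and 1087, 889 and 917 under Y27. Between Y27 and blebbistatin the groups did not overlap for Stat2 alone, against 9.64% of all tested genes. Stat2 read 714, 768 and 889 under Y27 and 687, 714 and 635 under blebbistatin, and the groups overlap once library 34 is counted as Y27. Its lowest Y27 value was 713.94 (library 12) and its highest blebbistatin value 713.9 (library 22). They lay closer than the worth of 1 read pair, with or without library 34, so this separation is close to a tie. Without library 34 the groups of Y27 and blebbistatin did not overlap for 4 members, Cxcl10 and Stat2 (higher under Y27) and Dhx58 and Eif2ak2 (lower), against 20.4% of all tested genes.

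The remaining genes followed library by library did not separate from the untreated cells under either inhibitor with all libraries in. Ifitm3 read 4152, 3002 and 2803 under Y27 and 3419, 2724 and 2030 under blebbistatin. Its blebbistatin difference was -0.47 on the log2 scale, with an interval of -1.03 to 0.08, and -0.28 without library 34. With a block on the series of library numbers the interval was -0.67 to -0.28. The unadjusted p was then 0.000962 and the adjusted p 0.612 from limma. For Y27 against blebbistatin the Ifitm3 difference was 0.30, with an unadjusted p of 0.00954 and an adjusted p of 0.885 from limma with the block. Trim25 read 2623, 2469 and 2190 under Y27 and 2427, 2810 and 2787 under blebbistatin. Eif2ak2 read 1592, 1476 and 1539 under Y27 and 1652, 1602 and 1424 under blebbistatin. These are the abundant members, and their groups overlapped. Ddx58 read 557, 391 and 407 under Y27 and 631, 522 and 355 under blebbistatin. Irf9 read 231, 303 and 223 under Y27 and 214, 233 and 247 under blebbistatin. Dhx58 read 67.6, 69.8 and 80.02 under Y27 and 87.9, 87.7 and 73.5 under blebbistatin. The sensors and Irf9 overlapped too. Irf7 read 6.75, 7.99 and 2.15 under Y27 and 2.29, 8.41 and 6.04 under blebbistatin. Ifi44 read 7.04, 1.00 and 2.15 under Y27 and 1.00, 4.03 and 1.00 under blebbistatin. Both stayed near the lowest values of the table.

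**Figure D4:**
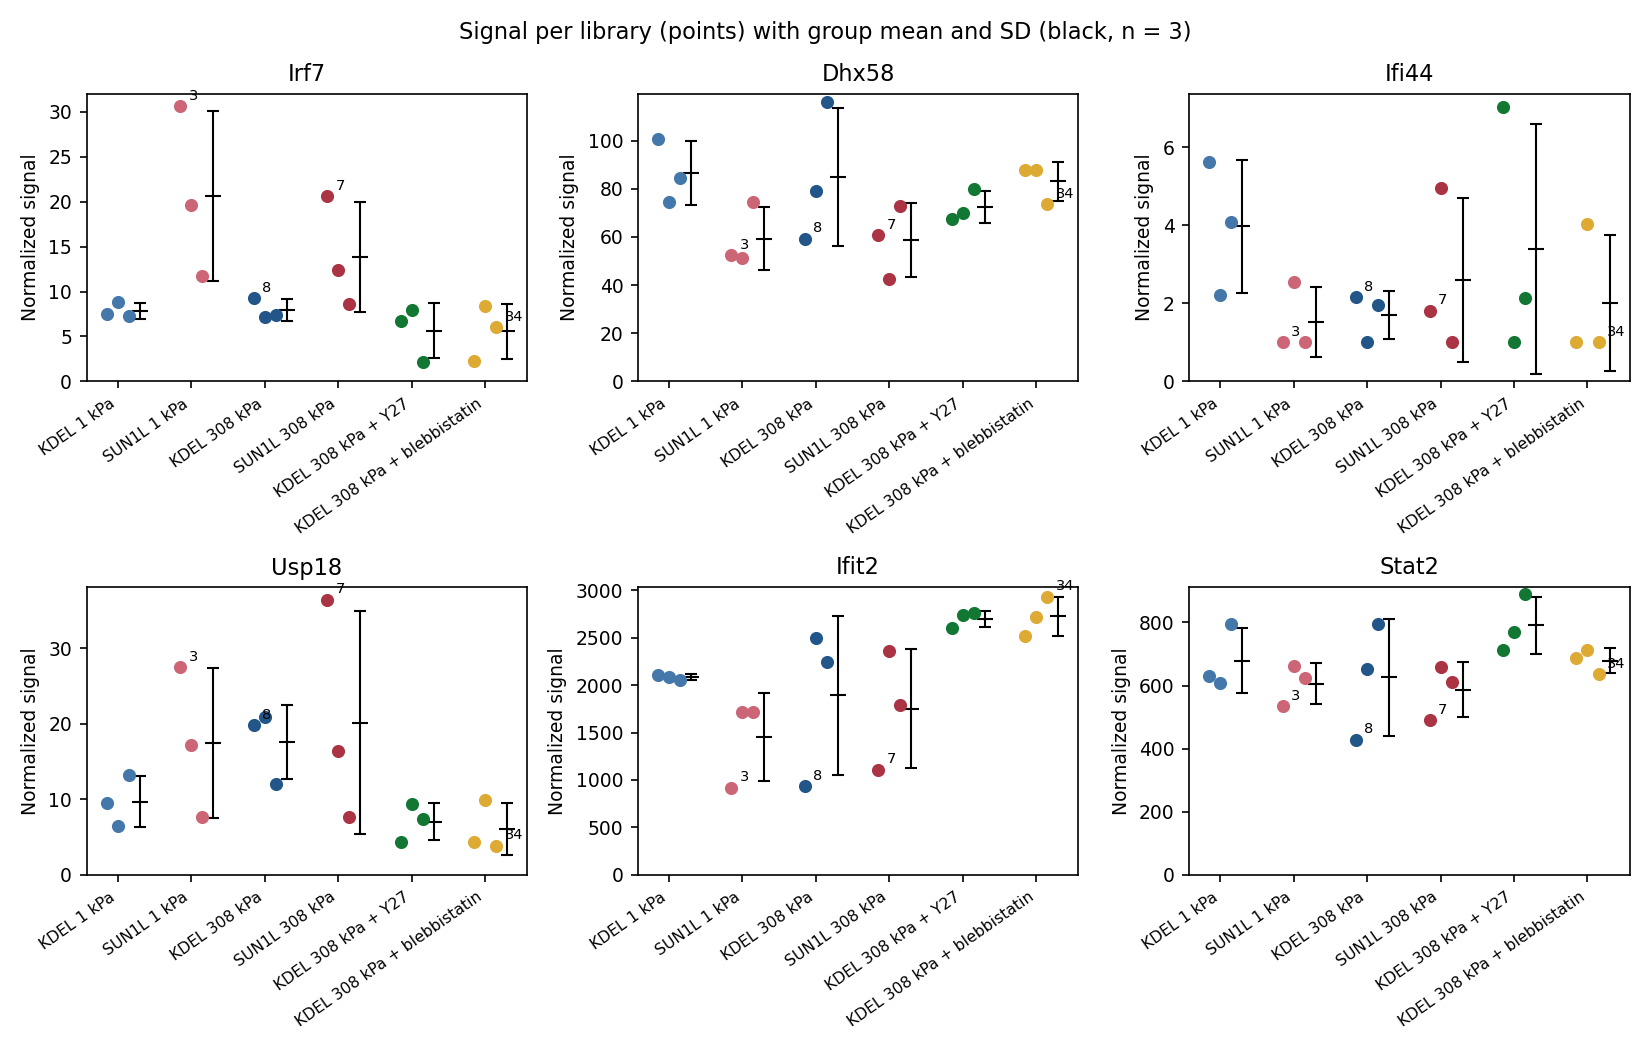
Normalized signal (vertical axes, from 0) of Irf7, Dhx58, Ifi44, Usp18, Ifit2 and Stat2 in each library (points, by group), with the group mean and SD in black (n = 3) and libraries 3, 7, 8 and 34 numbered. Usp18 lies lower in all 6 inhibitor libraries than in the untreated libraries of KDEL cells on 308 kPa, and Ifit2 is lowest in libraries 3, 7 and 8.

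Several members varied widely inside groups. Cxcl10, a chemokine that draws T cells, ranged from 1.00 to 22.1 over the 18 libraries and had the largest log2 range of members with a mean of at least 10. It read 20.2, 18.6 and 6.13, then 4.66, 18.2 and 14.9, then 2.16, 1.97 and 13.7, then 1.00, 17.3 and 12.7 in KDEL on 1 kPa, SUN1L on 1 kPa, KDEL on 308 kPa and SUN1L on 308 kPa. Under Y27 it read 8.80, 14.2 and 6.45, and under blebbistatin 3.97, 4.87 and 22.1. Ifit3 read 41.9, 37.5 and 40.8, then 9.34, 45.9 and 23.9, then 14.3, 63.3 and 56.8, then 23.6, 41.1 and 59.9 in the same 4 groups, 59.4, 99.8 and 72.3 under Y27 and 84.9, 68.2 and 48.2 under blebbistatin. Oasl2 read 3.75, 19.9 and 12.3, then 18.7, 18.3 and 16.3, then 2.16, 29.5 and 3.92, then 10.9, 23.0 and 8.56 in the same 4 groups. It read 5.28, 8.42 and 8.60 under Y27 and 4.97, 10.1 and 6.64 under blebbistatin. In the main fits no comparison reached an unadjusted p under 0.05 for any of these 3 genes. The median log2 range over 18 libraries was 1.54 for the 30 members and 1.11 for all tested genes. Ifit1 and Ifit3 have close relatives, as have Oas1a, the Gbp genes and Ifitm3, and reads shared between relatives could have been split or dropped in counting.

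The other 15 members are given by their range over the 18 libraries. Among effectors, Samd9l, a restrictor of poxviruses, ran from 367 to 730 and Bst2 from 23.3 to 135. The guanylate-binding proteins Gbp2 and Gbp3 ran from 32.7 to 109 and from 1.00 to 17.0. Oas1a, which makes the activator of RNase L, ran from 11.1 to 67.8, Ifit1 from 1.00 to 25.3 and Rsad2 from 1.00 to 2.49. Rsad2 stayed at or near the lowest value. Among modifiers of proteins, Parp9 and its partner Dtx3l ran from 325 to 544 and from 222 to 512, Parp14 from 23.4 to 165 and Isg15 from 19.5 to 63.5. Lgals3bp, a secreted glycoprotein, ran from 229 to 573. Of the rest, Ifi35 ran from 375 to 656, Xaf1, an antagonist of the apoptosis inhibitor XIAP, from 160 to 282, and Rtp4 from 15.5 to 157. None of these 15 reached an unadjusted p under 0.05 in any comparison of the main fits. Under alternative settings some did, such as Bst2 and Rtp4 with a block on the series of library numbers, and none was called.

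**Figure D5:**
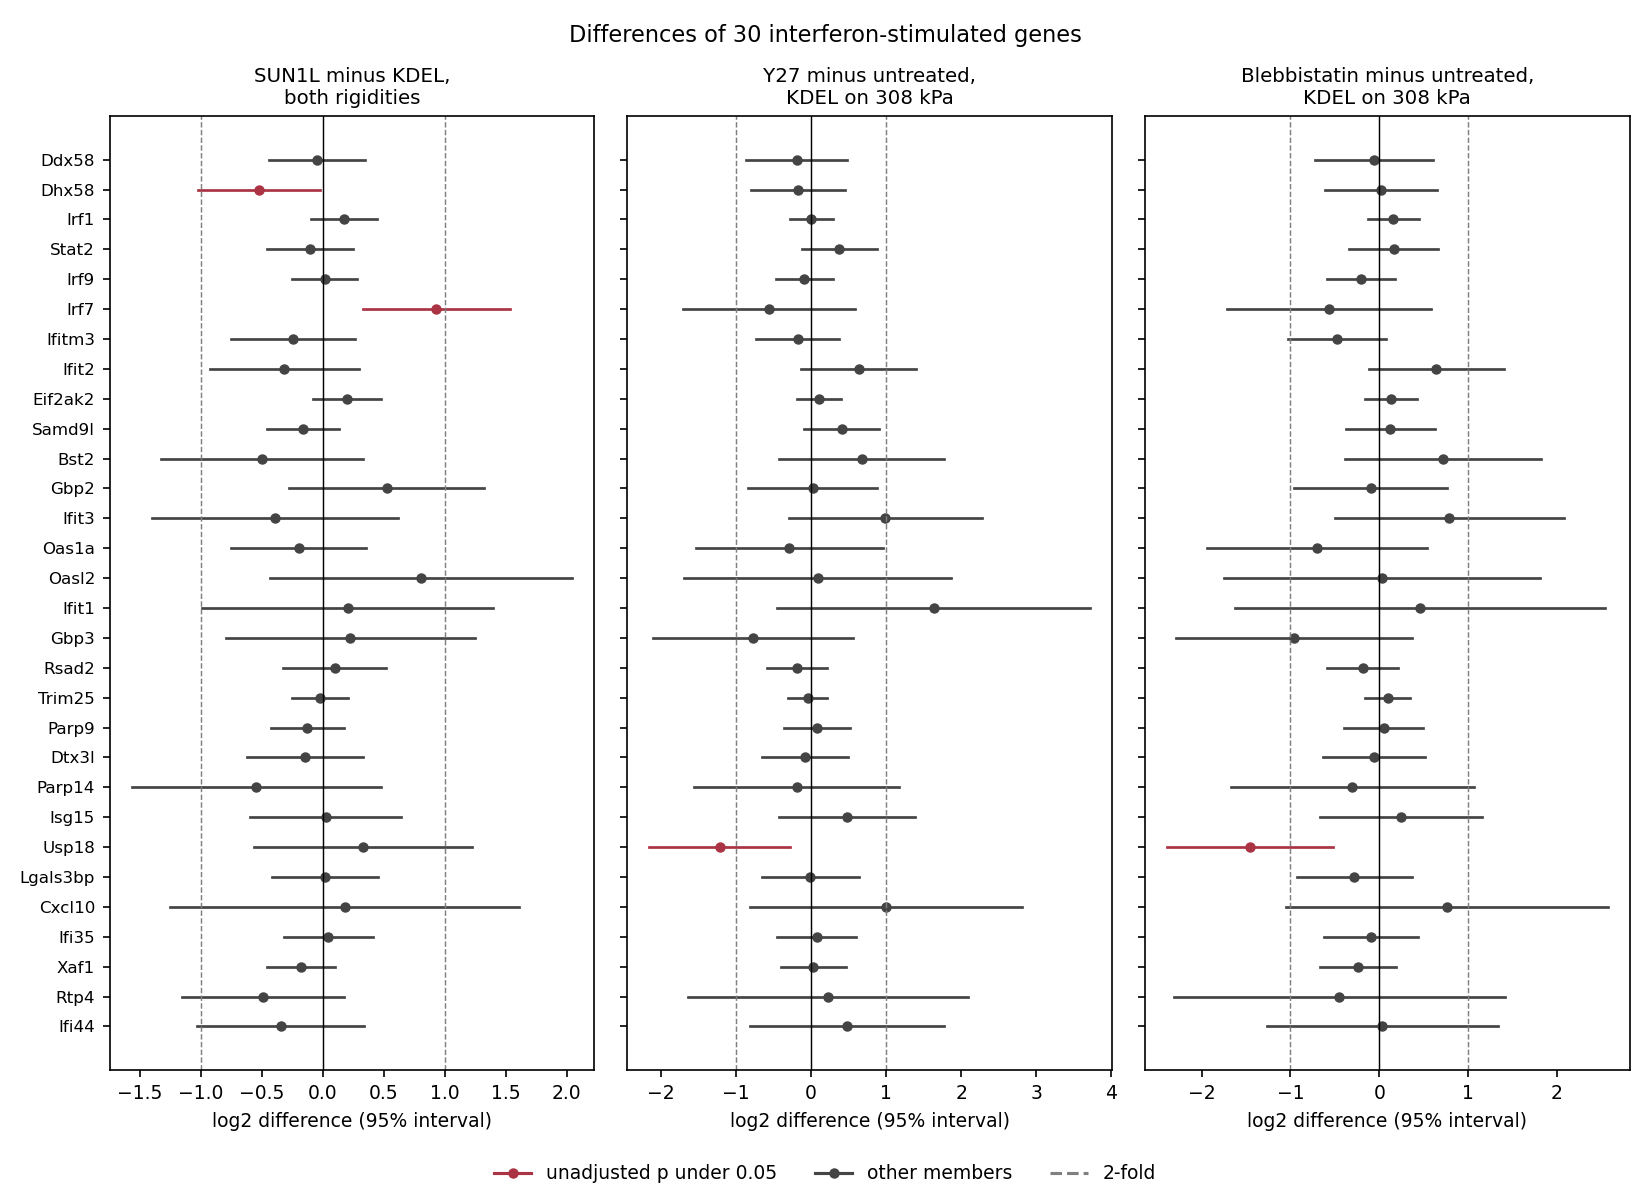
Log2 difference (point) with its 95% interval (line) for the 30 tested genes in 3 comparisons, with 2-fold marked by dashed lines and an unadjusted p under 0.05 in red. Irf7 and Dhx58 are red for SUN1L against KDEL over both rigidities, and Usp18 for each inhibitor.

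Other genes of the pathway were compared in the same fits. Of the lists in the table, 6 of 21 interferon ligands, 5 of 6 receptors, all 9 genes of JAK-STAT signalling, all 20 of nucleic acid sensing and 59 of 62 further interferon-stimulated genes could be tested. None of them was called in any of the 9 comparisons. Ifnb1 differed by 0.15 on the log2 scale between SUN1L and KDEL over both rigidities, with an interval of -0.75 to 1.05. Among the sensing genes, 2 of 20 had an unadjusted p under 0.05 on 1 kPa, both lower in SUN1L cells: Tmem173 (STING, the adaptor of DNA sensing) by -1.23 and Samhd1, which depletes nucleotides, by -0.46 on the log2 scale. That is 10.0% of the list against 4.54% of all tested genes, and the adjusted p from limma was 0.930 for both. Samhd1 was higher under Y27 by 0.50 and under blebbistatin by 0.55, and Socs3, a brake on cytokine signalling, by 0.65 and 0.67 on the log2 scale. Their adjusted p-values from limma were 0.707 and 0.789 under Y27 and 0.890 for both under blebbistatin. Without library 34 the blebbistatin differences were 0.59 and 0.57, with unadjusted p-values of 0.0116 and 0.105 from limma. With all libraries in, Samhd1 was 1 of 20 sensing genes (5.0%) and Socs3 1 of 9 JAK-STAT genes (11.1%) under an unadjusted p of 0.05 for each inhibitor. The share of all tested genes was 6.05% for Y27 and 4.21% for blebbistatin. Of the 6 ligands, Ifnz was lower under blebbistatin (16.7%) and none passed under Y27. Of the 59 tested further interferon-stimulated genes 4 were higher and 1 lower at an unadjusted p under 0.05 for SUN1L over both rigidities, 8.47% of the list against 6.8% of all tested genes. The largest of these differences was 1.73 for Oas1g, and Gbp4 differed by -1.52. Their adjusted p-values from limma were 0.385 and 0.580. Under Y27 3 of the 59 were higher (Ifi27l2a, Psmb10 and Ube2l6) and 1 lower (Helz2) at an unadjusted p under 0.05. That is 6.78% of the list against 6.05% of all tested genes. Under blebbistatin it was 0 of the 59, against 4.21%.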

How the data were processed

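The deposited table holds normalized signal values per gene, which the authors made from paired-end reads of polyadenylated RNA. Per the labels and the study's methods, reads were mapped with TopHat2 2.0 to mm9, filtered on quality, mates and duplicates, and scaled by the trimmed mean of M-values. Removing duplicates can lower the values of abundant genes. The gene positions in the table overlapped RefSeq genes of GRCm38.p6 for 94.6% of matched genes and mm9 annotation for 5.6%, so positions here are GRCm38.p6. The values are not whole reads: 44.4 to 49.9% of low values were whole multiples of the commonest low value, within 0.01, and no count model was used.

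Log2(signal + 1) was tested with limma 3.58.1 (R 4.3.3) with a trended prior. The 4 SUN1L and KDEL groups (12 libraries) shared a fit, as did the 3 groups on 308 kPa with and without inhibitor (9 libraries). Genes above 1 in at least 3 libraries were kept. The unit change, fold differences, is on the log2(signal + 1) scale and understates changes of low genes. The study gives 3 biological replicates per condition, and the labels do not say which cultures they came from. The fit was tested on simulated data. Exon lengths came from GENCODE vM1.

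Genes were named by rule: values in every library were given for members with an unadjusted p under 0.05, the 4 highest in signal, the 4 of widest log2 range with a mean of at least 10, the factors and the sensors. The members, lists and tests were chosen with earlier results of these data known. Every value column of the table was used.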

Additional observations from a re-analysis of the deposited data

How the results depend on the processing

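No member was called in any comparison under any setting tried. Each median log2 difference of the members moved by less than 0.217, the SD between libraries of a group in the members' mean log2 signal. The exception was library 34 counted as Y27, where Y27 against blebbistatin was -0.10. The main medians were at most 0.14 in size, so changes of sign pass this limit. Without library 34 the median went from -0.02 to 0.12 for blebbistatin and from 0.14 to -0.01 for Y27 against blebbistatin. No paired analysis was possible from the labels alone, because the labels give no replicate numbers that pair libraries across groups. A block on the 3 series of library numbers, which the labels do not call a pairing, could be fitted. Each series holds 1 library of each group, so the design is balanced for it. Numbering the replicates of each group by library number gives the same replicate block. The main fits left this block out, so differences between series stay in the spread behind their p-values and intervals. Over all tested genes the library of the last series was lowest in all 6 groups for 6.24% and highest in all 6 for 8.64%. The block raised the members with an unadjusted p under 0.05 from 2 to 5 on 1 kPa and from 2 to 6 over both rigidities. The count went from 1 to 2 under Y27 and under blebbistatin. It went from 0 to 1 on 308 kPa, for rigidity in SUN1L cells, for the interaction and for Y27 against blebbistatin. Over all 16021 tested genes it went from 727 to 2259 on 1 kPa and from 1089 to 2513 over both rigidities. Under Y27 it went from 970 to 1683 and under blebbistatin from 674 to 1213. On 308 kPa it went from 406 to 949 and for rigidity in SUN1L cells from 310 to 884. For rigidity in KDEL cells, where the member count stayed at 0, it went from 219 to 861. For the interaction it went from 145 to 333 and for Y27 against blebbistatin from 453 to 828. The block gave 58 called genes over both rigidities, array weights gave 56, and array weights gave 55 on 1 kPa. With no filter 1 gene was called for the interaction and 1 for blebbistatin. Leaving out libraries 3, 7 and 8 together, an alternative chosen after seeing the data, gave 7 genes on 1 kPa, 5 on 308 kPa and 17 over both rigidities for SUN1L, 1 for rigidity in SUN1L cells, 1 for the interaction, 2 for Y27 and 2 for blebbistatin. Leaving out each library in turn, called genes ranged from 8 (without library 4) to 14 on 1 kPa, from 9 to 10 on 308 kPa, from 18 (without library 16 or 20) to 27 over both rigidities, with 19 without library 19, from 0 to 2 for Y27 and for blebbistatin (2 without library 8, 1 without library 20 and, for blebbistatin, 1 without library 22), and from 0 to 1 (without library 22) for Y27 against blebbistatin. The cause was not tested. Signal worth few read pairs limits Irf7, Usp18, Ifi44, Gbp3, Ifit1, Oasl2, Cxcl10 and Rsad2.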
